A study of Mus musculus with 6 samples.

Results

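The cholesterol and fatty acid synthesis genes followed here are 30 named genes of the 54146 in the count tables: 18 enzymes from acetyl-CoA to cholesterol, 6 genes of sterol control and transport, and 6 enzymes of fatty acid synthesis. They were chosen by symbol for what they encode, with earlier results of these data known. All 30 were found and passed the filter on low counts. The samples were tumors of 4T1, an established mouse mammary carcinoma line, grown for 3 weeks from cells inoculated into the mammary fat pad, with nude mice as hosts. The cells were wild type in 3 libraries and Mki67-/- (labelled Ki-67-KO), a knockout of the gene for Ki-67, an antigen of dividing cells, in the other 3, and both groups were otherwise handled alike per the labels. Nude mice lack a thymus and hence most T cells but keep macrophages and natural killer cells. The labels give no age for the hosts and no number of knockout clones, so a difference between clones and an effect of the knockout cannot be told apart. They do not say whether replicates came from separate animals, so p-values measure the spread between these libraries.

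Cells make cholesterol from acetyl-CoA through mevalonate, isoprenoid diphosphates and squalene, which is closed into lanosterol and trimmed to cholesterol. Most of these enzymes are driven by the transcription factors SREBP1 and SREBP2, encoded by Srebf1 and Srebf2. SREBPs are held in the endoplasmic reticulum by Scap and the Insig proteins while sterol is plentiful and are carried to the Golgi and released when it is scarce. SREBP1 and the same acetyl-CoA supply also serve fatty acid synthesis, in which malonyl-CoA units are joined into palmitate that is then elongated and desaturated. Adipose tissue, which surrounds a fat pad tumor, is rich in the fatty acid enzymes, and Scd1 is abundant there.

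SREBPs bind promoters together with NF-Y, a factor that recognises the letters CCAAT, and the proximal promoters of these genes were therefore read for both kinds of element. The windows, from RefSeq (GRCm38.p6), run from 250 bases before to 50 bases after a start site, and 24 of the 30 genes had one. CCAAT, on either strand, lay in a window of 14 of 15 sterol enzymes, the exception being Acat2, and of 4 of 5 control genes and 2 of 4 fatty acid enzymes. Over all 27025 genes with a window the share was 41.1%. The sterol regulatory element core TCACNCCAC was found in 1 of the 24, Hmgcs1, where it lay 34 bases from the nearest CCAAT match, against 1.44% of all genes. A match describes these letters only, and binding was not measured. The stretches before the start site of 4 genes are shown, 5′ to 3′ on the gene's strand with matches in capitals (ATTGG is CCAAT on the other strand): Hmgcs1 for holding both elements, Mvk for its 5 CCAAT matches, and Insig2 and Fasn, with 3 each, as a gene that fell and a fatty acid enzyme. They lie at chr13:119690104-119690320 (plus strand), chr5:114444086-114444268 (plus), chr1:121332604-121332735 (minus) and chr11:120824592-120824647 (minus), and in Fasn 2 matches on opposite strands overlap.
Hmgcs1: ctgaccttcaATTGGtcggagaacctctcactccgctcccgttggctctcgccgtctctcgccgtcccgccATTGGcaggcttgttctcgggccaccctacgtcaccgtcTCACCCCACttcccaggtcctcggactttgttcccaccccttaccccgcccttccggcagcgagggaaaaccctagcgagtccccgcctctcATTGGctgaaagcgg
Mvk: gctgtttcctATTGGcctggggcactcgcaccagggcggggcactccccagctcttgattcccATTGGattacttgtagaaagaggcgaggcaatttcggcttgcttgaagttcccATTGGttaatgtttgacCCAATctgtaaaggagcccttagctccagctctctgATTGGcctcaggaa
Insig2: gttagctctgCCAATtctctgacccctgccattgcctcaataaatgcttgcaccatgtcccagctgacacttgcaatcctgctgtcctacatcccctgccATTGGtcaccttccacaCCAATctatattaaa
Fasn: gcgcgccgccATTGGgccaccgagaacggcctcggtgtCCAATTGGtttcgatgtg

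Gene counts totalled 22081970 to 38399826 read pairs per library, and levels are given as CPM, gene counts scaled to one common library size with TMM factors. A call means an adjusted p under 0.05 in edgeR's quasi-likelihood test over all genes. The part of Mki67 that was altered is not given in the sources used here, and the gene was at 359.6, 395 and 325 CPM in wild-type replicates 1, 2 and 3 and at 98.7, 117 and 139 CPM in the knockout replicates, in the direction of the labels (log2 fold change -1.61, edgeR adjusted p = 6.79e-05). Markers of mammary carcinoma epithelium were present in all libraries, with Krt8 at 1449 CPM ± 49.6 and 1639.7 CPM ± 184 (SD, n = 3 each). Krt18 was at 1079 CPM ± 22.1 and 1438 CPM ± 53.8. The summed level of 12 adipocyte markers was 105 to 152 CPM in wild-type and 371 to 1038 CPM in knockout libraries. For 10 keratinocyte markers it was 75.4 to 133 CPM and 736 to 1638 CPM, and for 8 sebaceous gland markers 6.39 to 11.04 CPM and 17.1 to 21.96 CPM. Of the sebaceous markers, Mc5r and Awat1 were under 1 CPM in each library and were named after their values were seen. The 5 liver markers summed to 0.294 to 0.990 CPM over the 6 libraries, and the 5 T cell markers to 1.52 to 6.15 CPM. Of those tested, 7 of 8 epithelial, 10 of 10 keratinocyte, 11 of 11 adipocyte, 2 of 5 sebaceous and 1 of 3 T cell markers rose, 10 of 10 macrophage markers fell, and no liver marker had enough counts to be tested. In such bulk samples fewer cells of a type and less RNA per cell cannot be told apart. Knockout replicates 2 and 3 also had the most unmapped pairs, 54.6% and 52.7%, against 30.8% to 33.9% in the other libraries.

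Most enzymes of the early, mevalonate part of the sterol pathway rose in knockout tumors, and the fatty acid enzymes moved in different directions. Of the 8 enzymes from acetyl-CoA to squalene 6 rose and none fell, of the 10 from squalene to cholesterol 4 rose and 1 fell, of the 6 control genes 2 rose and 1 fell, and of the 6 fatty acid enzymes 2 rose and 1 fell. Of all 19900 genes tested, 36.0% were called, 17.6% higher and 18.4% lower in knockout tumors. The 18 sterol enzymes were thus called higher in 55.6% and lower in 5.56% of cases, and the 6 fatty acid enzymes in 33.3% and 16.7%. The median log2 fold change was 0.52 for the early steps, 0.29 for the later steps, 0.07 for the control genes and 0.21 for the fatty acid enzymes, beside 0.05 for all genes tested. The groups did not overlap, with knockout above, for 12 of the 18 sterol enzymes, and for 24.5% of all genes tested. They did not overlap with knockout below for 1 of the 18, and for 26.0% of all genes tested. In the same libraries the 8 epithelial markers summed to 2874 to 2980.1 CPM against 5928 to 6384 CPM and the 10 macrophage markers to 5506 to 6409 CPM against 977 to 1174 CPM, and their part in these counts was not tested. Without wild-type replicate 1, 2 or 3 the number of sterol enzymes called higher was 6 in place of 10, and the number of all genes called higher was 1821, 1981 and 1855 in place of 3506. The sum over the 8 early enzymes was 215 to 239 CPM in wild-type and 321 to 342 CPM in knockout libraries, and over the 6 fatty acid enzymes 1388 to 1531 CPM and 1424 to 2370.3 CPM.

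**Figure D1:**
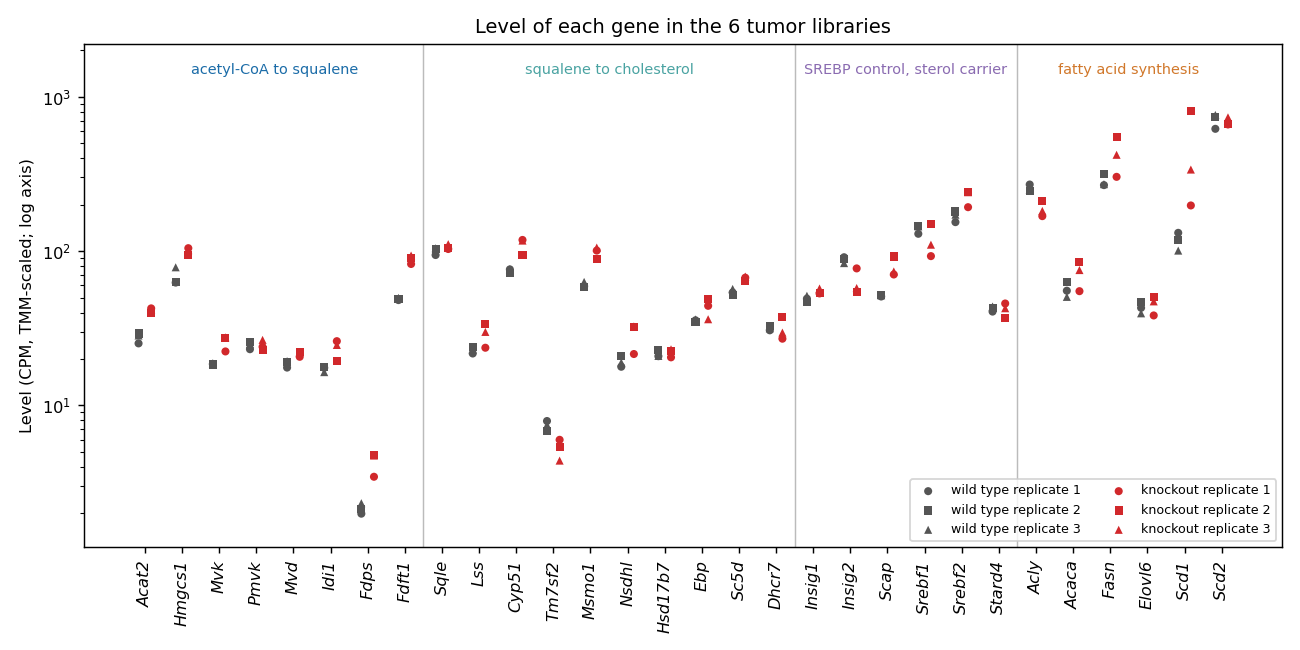
Level of each of the 30 genes (CPM with TMM scaling, log axis) in each of the 3 wild-type (grey) and 3 knockout (red) libraries, with 1 symbol per replicate number. Hmgcs1, Fdft1, Cyp51 and Msmo1 show 3 knockout points above 3 wild-type points, and Scd1 shows the widest spread among the knockout libraries, from 198 to 807 CPM.

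At the entry of the pathway, Acat2, the cytosolic thiolase that joins acetyl-CoA units (ENSMUSG00000023832, chromosome 17, 12942890 to 12960747, minus strand, GRCm38 as for all positions here), was at 25.2, 29.2 and 28.4 CPM in wild-type replicates 1, 2 and 3. It was at 42.5, 39.8 and 41.6 CPM in the knockout replicates, so each knockout library lay above each wild-type library. The log2 fold change was 0.58 (SE 0.10, edgeR adjusted p = 0.00226). Of the 50-base windows in Acat2 transcripts, 39.1% also occur in Acat3, a close copy, and pairs that map to both are not counted. Hmgcs1 (ENSMUSG00000093930, chromosome 13, 119690379 to 119708260, plus strand) encodes the cytosolic HMG-CoA synthase of the next step. Its level was 62.5, 62.8 and 78.5 CPM in wild-type and 104, 94.6 and 101 CPM in knockout replicates, again without overlap, and edgeR's log2 fold change was 0.56 ± 0.11 (SE), with an adjusted p of 0.00522. Exons of the overlapping gene Gm48342 cover 35.1% of its coding bases, and pairs there are ambiguous.

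Among the mevalonate-modifying enzymes, Mvk, mevalonate kinase, was nearly constant in wild-type tumors at 18.5, 18.4 and 18.8 CPM and stood at 22.4, 27.5 and 27.6 CPM in the knockout replicates (log2 fold change 0.48, SE 0.11, edgeR adjusted p = 0.0126). Pmvk, the kinase that follows it, did not pass, with 23.1, 25.7 and 25.0 CPM in wild-type and 24.0, 22.8 and 26.6 CPM in knockout replicates, values that overlap. Mvd, the decarboxylase that forms isopentenyl diphosphate, was at 17.6, 19.2 and 19.4 CPM and 20.7, 22.1 and 22.1 CPM, which did not pass although the groups did not overlap (log2 fold change 0.21, edgeR adjusted p = 0.140). The 3 successive steps on mevalonate therefore did not share a call. The rise of Mvk lost its call without any 1 wild-type library or without knockout replicate 3. It also shrank, to 0.20 (adjusted p = 0.151) over the 4 libraries with under 40% unmapped pairs and 0.30 (adjusted p = 0.0711) when the unmapped share entered the fit as a term, the 4 being the wild-type libraries and knockout replicate 1.

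Idi1, the isomerase that interconverts the isoprenoid building blocks, rose by 0.44 on the log2 scale (SE 0.13, edgeR adjusted p = 0.0283), from 17.5, 17.8 and 16.4 CPM to 26.1, 19.5 and 24.7 CPM, with knockout replicate 2 closest to the wild-type libraries. Its call was lost in the same 4 left-out fits as that of Mvk. Of the 50-base windows in Idi1 transcripts, 25.3% occur in another gene, 17.7% in Gm13502, and the effect on its counts was not tested. Fdft1, squalene synthase (ENSMUSG00000021273, chromosome 14, 63145150 to 63179578, minus strand), commits the pathway to sterols and had the smallest p among the 30 genes. It was at 48.1, 48.7 and 49.8 CPM in wild-type and 82.5, 89.7 and 93.6 CPM in knockout replicates, a 1.81-fold rise (log2 fold change 0.86, SE 0.08, edgeR adjusted p = 0.000149). The lowest knockout library was far above the highest wild-type library, and the spread within each group was small. Exons of Ctsb cover 18.3% of the Fdft1 exon bases, outside its coding bases, and pairs there are ambiguous. Of the 50-base windows in Fdft1 transcripts, 26.5% occur in another gene, 17.2% in Ctsb. The effect of this on the Fdft1 counts was not tested. Fdps, which makes farnesyl diphosphate just before the Fdft1 step, also rose (log2 fold change 1.00, SE 0.20, edgeR adjusted p = 0.00592), at only 1.99, 2.15 and 2.32 CPM and 3.45, 4.78 and 4.73 CPM. Exons of Gm43738 cover 85.9% of the Fdps coding bases, and 26.7% of all its exon bases lie in exons of other genes, so its level is uncertain, and the share of its pairs lost in counting was not measured. The log2 fold change of Fdps was 0.61 (adjusted p = 0.0552) over the 4 libraries with under 40% unmapped pairs and 0.73 (adjusted p = 0.0346) when the unmapped share entered the fit as a term.

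Squalene epoxidase, encoded by Sqle, did not pass, at 94.3, 103 and 104 CPM in wild-type and 103, 105 and 111 CPM in knockout replicates (log2 fold change 0.08, SE 0.08, edgeR adjusted p = 0.457). It is an oxygen-requiring control point of the pathway. Per kilobase of exon it had the highest mean of the 18 sterol enzymes in wild-type tumors, 18.1 ± 0.974 CPM (SD, n = 3), followed by Cyp51 at 17.0 ± 0.552, while in knockout tumors Cyp51, Hmgcs1 and Fdft1 stood above it, at 24.9 ± 2.96, 21.8 ± 1.11 and 21.0 ± 1.33 against 19.2 ± 0.722. Lss, which closes the sterol rings, was at 21.7, 24.1 and 23.0 CPM and 23.6, 33.7 and 29.9 CPM and did not pass either (edgeR adjusted p = 0.0824). Knockout replicate 1 lay within the wild-type range. Leaving it out brought Lss past the threshold, the log2 fold change going from 0.34 to 0.47. The log2 fold change of Lss was 0.18 without knockout replicate 2. It was 0.08 when the unmapped share entered the fit as a term (edgeR adjusted p = 0.648). Over the 4 libraries with under 40% unmapped pairs it was -0.02. The steps on each side of these enzymes, Fdft1 before and Cyp51 after, both rose.

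Lanosterol is first trimmed by Cyp51, Tm7sf2, Msmo1, Nsdhl and Hsd17b7, of which 3 rose, 1 fell and 1 did not pass. Cyp51, the lanosterol demethylase (ENSMUSG00000001467, chromosome 5, 4081145 to 4104746, minus strand), was at 76.1, 72.1 and 76.5 CPM in wild-type and 118, 95.0 and 117 CPM in knockout replicates, with no overlap between the groups (log2 fold change 0.56, SE 0.10, edgeR adjusted p = 0.00412). Msmo1, the methylsterol oxidase (ENSMUSG00000031604, chromosome 8, 64718139 to 64733792, minus strand), was at 59.1, 58.8 and 63.1 CPM and 101, 89.1 and 105 CPM, a 1.63-fold rise (log2 fold change 0.71, SE 0.09, edgeR adjusted p = 0.000714). Every knockout library lay above every wild-type library. Nsdhl, the X-linked dehydrogenase that removes the oxidised carbon, was at 17.8, 21.0 and 19.0 CPM and 21.5, 32.4 and 32.5 CPM, where knockout replicate 1 lay close to the wild-type libraries and replicates 2 and 3 lay well above them (log2 fold change 0.58, edgeR adjusted p = 0.0258). Its call was lost when any library other than knockout replicate 1 was left out, and the log2 fold change was 0.10 (adjusted p = 0.553) over the 4 libraries with under 40% unmapped pairs and 0.22 (adjusted p = 0.250) when the unmapped share entered the fit as a term. Hsd17b7, the ketoreductase that completes the removal, was at 20.8, 22.8 and 20.9 CPM and 20.5, 22.6 and 23.1 CPM, overlapping throughout.

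Tm7sf2, a sterol reductase that acts after Cyp51, was the only sterol enzyme of the 18 to fall. Its level was 7.92, 6.83 and 7.48 CPM in wild-type and 5.99, 5.37 and 4.39 CPM in knockout replicates, with no overlap (log2 fold change -0.49, SE 0.16, edgeR adjusted p = 0.0429). This call held in 5 of 18 alternatives, and the log2 fold change over all of them was -0.61 to -0.35. Sc5d, a desaturase of the last steps, rose by 0.30 (SE 0.08, edgeR adjusted p = 0.0227), from 53.9, 51.9 and 56.9 CPM to 67.3, 64.3 and 68.4 CPM. Its call was lost without any 1 wild-type library or without knockout replicate 3. Ebp, the sterol isomerase, was at 35.6, 34.6 and 36.1 CPM and 44.2, 49.3 and 36.2 CPM, where knockout replicate 3 was just above the highest wild-type library, and did not pass (edgeR adjusted p = 0.0934). Leaving that library out moved the log2 fold change from 0.29 to 0.40, past the threshold. Dhcr7, the reductase that finishes cholesterol, was at 30.7, 32.8 and 31.6 CPM and 27.1, 37.6 and 29.6 CPM with overlapping groups. It was called lower over the 4 libraries with under 40% unmapped pairs, at -0.29 (adjusted p = 0.0390).

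**Figure D2:**
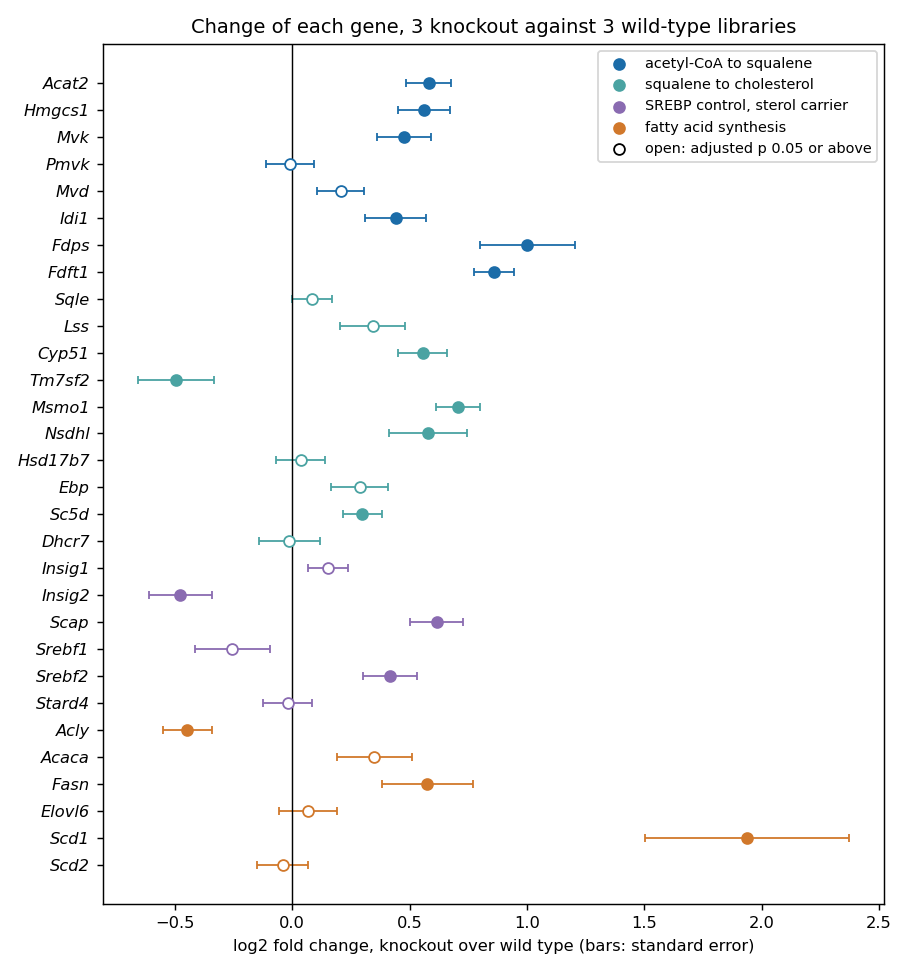
Log2 fold change of each of the 30 genes, knockout over wild type, with its standard error (bars), coloured by the part of the pathway. Filled points passed an adjusted p of 0.05 and open points did not, and the early sterol steps at the top lie to the right of 0 except Pmvk.

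The genes that control SREBP did not move as one. Scap, the sterol-sensing escort of SREBP (ENSMUSG00000032485, chromosome 9, 110333288 to 110384950, plus strand), rose 1.53-fold, from 50.8, 51.9 and 51.7 CPM in wild-type to 70.6, 92.2 and 73.8 CPM in knockout replicates (log2 fold change 0.62, SE 0.11, edgeR adjusted p = 0.00369). The 3 wild-type values were nearly equal, and all knockout values were higher. With under 40% unmapped pairs the log2 fold change was 0.39 (adjusted p = 0.00352). Exons of 5830462I19Rik cover 20.5% of its coding bases, and the counts do not use strand. Insig2, which retains Scap in the endoplasmic reticulum, moved the opposite way, from 91.3, 88.5 and 83.6 CPM to 77.3, 54.3 and 57.7 CPM (log2 fold change -0.48, SE 0.13, edgeR adjusted p = 0.0242). Its call was lost without any 1 wild-type library or without knockout replicate 3, and its log2 fold change was -0.25 (adjusted p = 0.0441) over the 4 libraries with under 40% unmapped pairs and -0.23 (adjusted p = 0.112) when the unmapped share entered the fit as a term. Insig1, a retention protein that is itself a strong SREBP target, was at 49.2, 46.8 and 51.4 CPM and 53.2, 53.2 and 57.3 CPM and did not pass (edgeR adjusted p = 0.195), although the groups did not overlap. Per kilobase of exon, the ratio of Insig1 to Insig2 was 0.605, 0.593 and 0.690 in the wild-type replicates and 0.773, 1.10 and 1.12 in the knockout replicates.

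Srebf2, whose product mainly drives sterol genes, rose by 0.42 on the log2 scale (SE 0.12, edgeR adjusted p = 0.0228), from 154, 181 and 172 CPM in wild-type to 193, 243 and 241 CPM in knockout replicates. The call was lost when any library other than knockout replicate 1 was left out. For Srebf2 the log2 fold change was 0.13 (adjusted p = 0.329) over the 4 libraries with under 40% unmapped pairs and 0.23 (adjusted p = 0.152) when the unmapped share entered the fit as a term. Srebf1, whose product mainly drives fatty acid genes, was at 129.5, 146 and 145 CPM and 92.8, 149 and 110.1 CPM, and did not pass (log2 fold change -0.25, SE 0.16, edgeR adjusted p = 0.244). Knockout replicates 1 and 3 lay below all wild-type libraries and knockout replicate 2 above them. Leaving out knockout replicate 2 brought Srebf1 to a log2 fold change of -0.51, called lower (edgeR adjusted p = 0.00489). It was called lower as well at -0.66 (adjusted p = 0.000506) over the 4 libraries with under 40% unmapped pairs and -0.56 (adjusted p = 0.0295) when the unmapped share entered the fit as a term. Among the knockout libraries, replicate 2 had the highest unmapped share and the highest adipocyte, keratinocyte, sebaceous and macrophage marker sums. The part of each was not tested. The ratio of Srebf1 to Srebf2 per kilobase of exon was 1.07, 1.03 and 1.07 in the wild-type replicates and 0.614, 0.782 and 0.583 in the knockout replicates, so that it was lower in all 3 knockout libraries. The ratios were described after the levels were seen and were not tested. Gene counts do not separate the Srebf1a and Srebf1c transcripts, which differ in their first exon. Stard4, a carrier that moves cholesterol between membranes, was at 40.6, 43.0 and 43.8 CPM and 45.8, 37.1 and 42.6 CPM with overlapping groups, and did not pass.

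Of the fatty acid enzymes, Scd1 changed most and Acly fell. Scd1, a stearoyl-CoA desaturase (ENSMUSG00000037071, chromosome 19, 44394455 to 44407879, minus strand), was at 131, 118 and 101 CPM in wild-type replicates 1, 2 and 3 and at 198, 807 and 338 CPM in the knockout replicates. All 3 knockout libraries were above all wild-type libraries, but they differed among themselves by more than the 2 groups' nearest libraries did. The log2 fold change was 1.94 (SE 0.43, edgeR adjusted p = 0.00922), and 1.15 without knockout replicate 2 (adjusted p = 0.00167). Scd2, its neighbour and close relative on the same chromosome, was the most abundant of the 30 genes in wild-type tumors, at 129.6 ± 14.1 CPM per kilobase of exon (SD, n = 3). Scd1 was at 23.9 ± 3.14 on that scale. In CPM, Scd2 was at 620.3, 742 and 763 CPM and 662, 667 and 736 CPM and did not pass (log2 fold change -0.04, SE 0.11, edgeR adjusted p = 0.789). The ratio of Scd1 to Scd2 per kilobase went from 0.237, 0.178 and 0.148 to 0.334, 1.35 and 0.512, so Scd1 exceeded Scd2 in knockout replicate 2 alone. Of the 50-base windows of Scd1 transcripts, 4.56% occur in another gene, which leaves most pairs assignable.

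Acly, which supplies cytosolic acetyl-CoA from citrate to both pathways (ENSMUSG00000020917, chromosome 11, 100476353 to 100528000, minus strand), fell in knockout tumors. It was at 270.1, 245 and 249 CPM in wild-type and 169, 210.1 and 182 CPM in knockout replicates, without overlap (log2 fold change -0.45, SE 0.10, edgeR adjusted p = 0.0110). Leaving out wild-type replicate 1 or knockout replicate 3 ended the call, with adjusted p of 0.0705 and 0.0506. Fasn, the synthase that builds palmitate, was at 268, 316 and 272 CPM and 303, 551 and 421 CPM, and its knockout replicate 1 lay within the wild-type range. The log2 fold change of 0.58 (SE 0.19) passed narrowly (edgeR adjusted p = 0.0467), and it was 0.30 without knockout replicate 2 (adjusted p = 0.114). Of the 6 libraries, knockout replicate 1 was the one that could be left out with the call of Fasn kept. Acaca, which makes malonyl-CoA, was at 55.4, 63.1 and 50.5 CPM and 55.0, 85.2 and 75.4 CPM and did not pass (edgeR adjusted p = 0.120). Leaving out knockout replicate 1 took its log2 fold change from 0.35 to 0.50, past the threshold. The log2 fold change of Acaca was 0.16 without knockout replicate 2. It was 0.001 when the unmapped share entered the fit as a term (edgeR adjusted p = 0.995). Over the 4 libraries with under 40% unmapped pairs it was -0.10. Of the 50-base windows in Acaca transcripts, 30.4% occur in other genes, 29.2% in Gm5182, and the effect on its counts was not tested. Elovl6, the elongase acting on palmitate, was at 42.9, 47.0 and 39.5 CPM and 38.3, 50.1 and 47.2 CPM, with overlapping groups.

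The knockout libraries differed among themselves in the fatty acid enzymes. All 6 were lowest in knockout replicate 1, and 5 of 6 were highest in replicate 2, the exception being Scd2. Of the 18 sterol enzymes, 9 were lowest in replicate 1, 7 in replicate 2 and 2 in replicate 3, and 9 were highest in replicate 3. The summed adipocyte markers were also lowest in replicate 1 and highest in replicate 2, and so were the summed sebaceous and macrophage markers. For sebaceous markers this held for the sum only. Their median log2 difference from the wild-type mean (0.5 CPM added) was 0.31, 0.55 and 0.97 in knockout replicates 1, 2 and 3. Keratinocyte markers were highest in replicate 2 and lowest in replicate 3. Epithelial markers were highest in replicate 1, and T cell and liver markers in replicate 3. Adipoq was at 13.7, 47.0 and 20.5 CPM in knockout replicates 1, 2 and 3 and at 4.78, 3.15 and 2.97 CPM in the wild-type replicates, and the 12 adipocyte markers summed to 371, 1038 and 471 CPM in the knockout replicates. All 11 adipocyte markers tested rose. Their part in the change of Scd1 and Fasn was not tested. The unmapped share of pairs, highest in knockout replicates 2 and 3, moved alongside as well, and with it as a covariate the log2 fold change of Scd1 was 0.83 (edgeR adjusted p = 0.0803) and that of Fasn 0.13 (adjusted p = 0.525). Over the 4 libraries with under 40% unmapped pairs, which keep knockout replicate 1 alone, they were 0.70 and 0.02, the lone library being assumed to vary like the wild-type libraries. Adipoq and Plin1, which the plot by library also shows, were chosen after their values were seen.

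**Figure D3:**
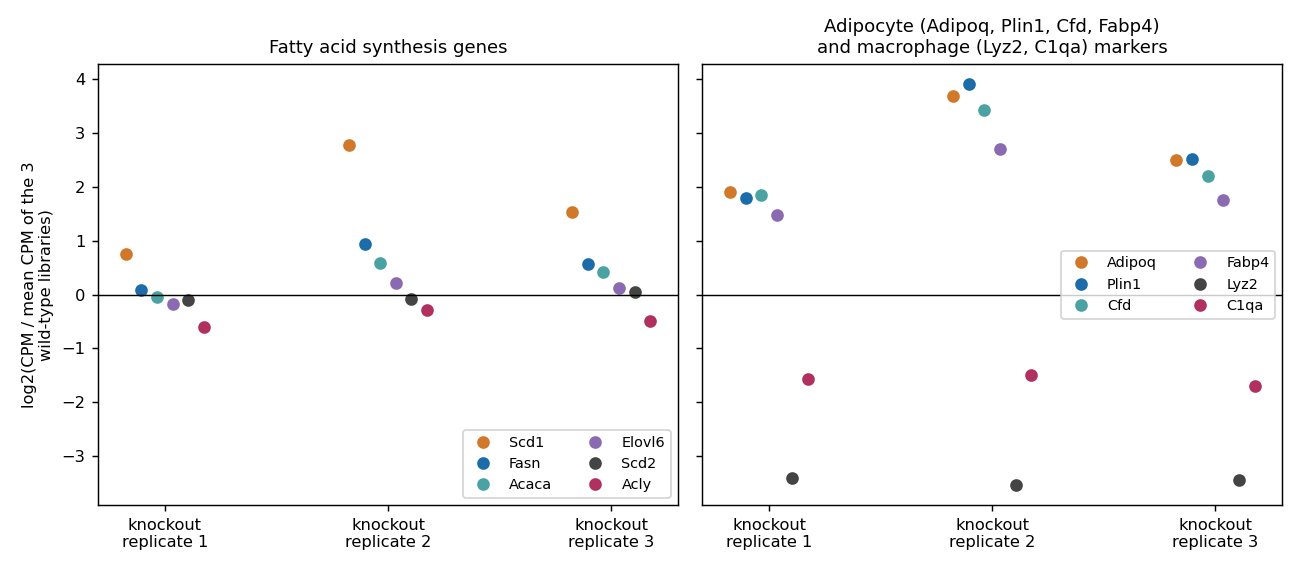
Left, log2 of the CPM of each fatty acid enzyme over its mean in the 3 wild-type libraries, for each knockout library; right, the same for 4 adipocyte and 2 macrophage markers. Scd1 reached 2.79 in knockout replicate 2 against 0.76 in replicate 1, and Adipoq 3.69 against 1.92, while Acly lay below 0 in all 3.

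The 30 genes lie on 15 chromosomes, of which chromosomes 8 and 14 had the highest medians over all their tested genes. On chromosome 8 the median log2 fold change of 1038 genes tested was 0.44, and 43.3% of them were called higher. On chromosome 14 the median was 0.31 over 684 genes, with 28.1% called higher. Msmo1 and Mvd lie on chromosome 8 and Fdft1 on chromosome 14. Relative to its chromosome's median, Msmo1 was higher by 0.27 on the log2 scale and Fdft1 by 0.55, whereas Mvd was at -0.23. The other 13 of these chromosomes had medians of -0.15 to 0.10. On those, the members called higher were 0.25 (Sc5d) to 1.93 (Scd1) above their chromosome's median, and Tm7sf2, Insig2 and Acly, called lower, were at -0.50, -0.48 and -0.41 relative to it. The part of the chromosome shifts in the changes of single genes was not tested.

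**Figure D4:**
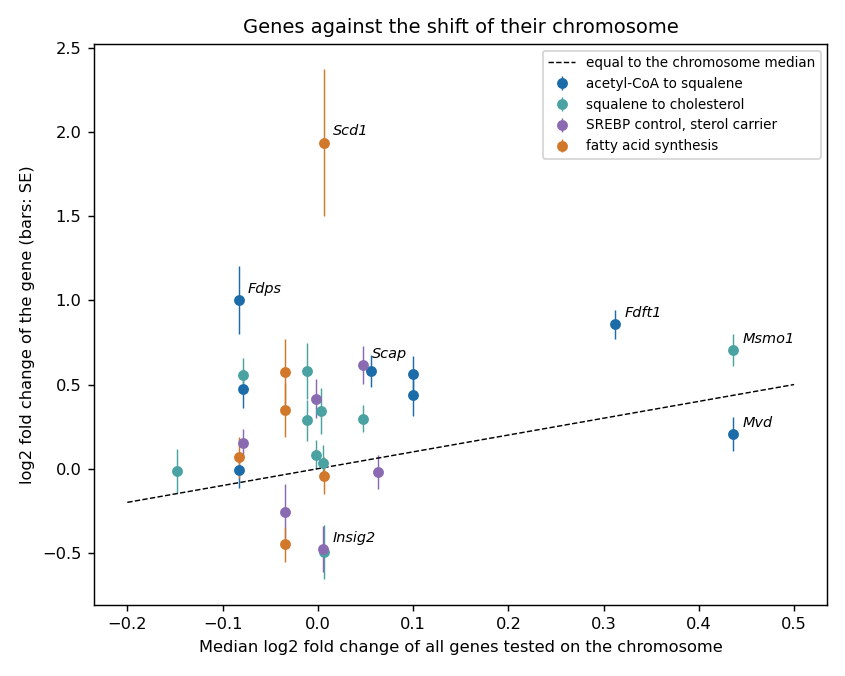
Log2 fold change of each of the 30 genes (bars, standard error) against the median log2 fold change of all genes tested on its chromosome, with a dashed line where both are equal. Msmo1 and Mvd, at the right, lie on chromosome 8 with a median of 0.44, and Fdft1 on chromosome 14 with 0.31.

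Other genes of the same pathways were taken from lists outside the 30. Over all genes tested, 17.6% were called higher and 18.4% lower. Of 10 further sterol and isoprenoid enzymes 3 rose (30%) and none fell. Among those that rose were the protein farnesyltransferase subunits Fnta (log2 fold change 0.51) and Fntb (0.43). Fnta was at 92.3, 89.9 and 87.4 CPM in wild-type and 144, 119.8 and 120.1 CPM in knockout replicates. Fnta lies on chromosome 8. The 3 became 0 without wild-type replicate 3 and 1 when any other library but knockout replicate 1 was left out, and without that library 3 fell. Of 8 genes of SREBP processing and turnover in the endoplasmic reticulum 1 rose (12.5%) and 2 fell (25%), near the shares over all genes. Without any 1 wild-type library none rose. Rnf145, a sterol-responsive ligase, went from 212, 197 and 219 CPM to 131, 122 and 122 CPM (log2 fold change -0.74, SE 0.09, edgeR adjusted p = 0.000349), and Rnf139, a related ligase, had a log2 fold change of -0.49. The Golgi proteases Mbtps1 and Mbtps2, which release SREBP, did not pass, at log2 fold changes of 0.10 and -0.24, and were named after their values were seen.

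Of 25 further genes of fatty acid synthesis, elongation and desaturation 10 rose (40%) and 4 fell (16%), with a median log2 fold change of 0.23. Over all genes tested the shares were 17.6% higher and 18.4% lower, so the share that fell was near that of all genes. The desaturase gene Fads3 went from 13.2, 12.9 and 15.3 CPM to 38.1, 54.9 and 41.2 CPM (log2 fold change 1.70, SE 0.15, edgeR adjusted p = 9.38e-05). Fads2, of polyunsaturated fatty acid synthesis, rose by 0.69, the elongase Elovl7 by 0.93 and the elongation reductase Tecr, on chromosome 8, by 1.05. Among the genes that fell, Mid1ip1, whose product promotes acetyl-CoA carboxylase activity, went from 34.3, 31.5 and 29.0 CPM to 11.9, 15.3 and 10.9 CPM (log2 fold change -1.32, SE 0.14, edgeR adjusted p = 0.000263), with all knockout values far below the wild-type values. Hacd1, a dehydratase of elongation, had a log2 fold change of -1.41, the elongase Elovl5 of -0.72 and Hacd3 of -0.48. Thrsp, a lipogenic gene of adipose tissue and paralog of Mid1ip1, was at 2.71, 1.88 and 1.44 CPM and 1.40, 22.9 and 15.2 CPM, higher in knockout replicates 2 and 3 than in the other 4 libraries (log2 fold change 2.70, edgeR adjusted p = 0.0263), and was named after its values were seen. The 10 genes called higher were 3 without wild-type replicate 1 or 3, 5 without wild-type replicate 2 and 4 without knockout replicate 3, and the 4 called lower were 7 without knockout replicate 2.

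Genes of sterol export, storage and release from lysosomes took the opposite direction to the sterol enzymes, with 9 of 13 lower and none higher (median log2 fold change -0.54). The share lower was 69.2%, beside 18.4% of all genes tested. Abca1, the pump that loads cholesterol onto lipoproteins, went from 104, 105 and 113 CPM to 36.9, 43.7 and 44.4 CPM (log2 fold change -1.36, SE 0.10, edgeR adjusted p = 2.93e-05). Apoe, the lipid carrier secreted by macrophages and other cells, went from 2577, 1861 and 2396 CPM to 696, 1106 and 831 CPM (log2 fold change -1.38), and Ch25h, which makes a hydroxycholesterol that restrains SREBP, from 10.7, 10.5 and 10.3 CPM to 4.78, 3.63 and 4.00 CPM (-1.33). Mylip, a ligase induced by sterol-sensing nuclear receptors, had a log2 fold change of -0.54. The receptor genes themselves, Nr1h3 (-0.17) and Nr1h2 (-0.24), did not pass and were named after their values were seen. All 10 macrophage markers fell in the same libraries, with a median log2 fold change of -1.55, among them Lyz2 (-3.46) and C1qa (-1.58), and their part in the fall of this list was not tested.

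Across alternatives in normalization, test, filter, covariates and libraries, 6 of the 17 called members kept their call in all 18, namely Acat2, Hmgcs1, Fdft1, Cyp51, Msmo1 and Scap. The log2 fold changes of these over the alternatives were 0.50 to 0.65 for Acat2, 0.47 to 0.63 for Hmgcs1, 0.69 to 0.92 for Fdft1, 0.42 to 0.65 for Cyp51, 0.60 to 0.77 for Msmo1 and 0.39 to 0.75 for Scap. Fdps and Scd1 kept theirs when each library was left out in turn. None of the 17 changed direction in any alternative.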

How the data were processed

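RNA of 4T1 tumors was sequenced in 6 libraries as paired 50-base reads, per the labels. The authors deposited raw counts of pairs for each gene, 1 table per sample, in the layout of STAR's gene counts; STAR 2.6.0c, FastQC, DESeq2 and GRCm38 are named in the submitters' processing notes. In that layout pairs that map to several places, or overlap exons of several genes, are counted for no gene. The unstranded column was used. The 4 rows that name no gene, 45.2% to 66.5% of pairs, stayed out of library sizes and tests.

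Of 54146 identifiers, 54079 matched GENCODE M21 (GRCm38), which gave symbols, positions and exon lengths. The test was edgeR's quasi-likelihood F test (version 4.0.16, R 4.3.3) after filterByExpr and TMM, knockout against wild type over 6 libraries, with Benjamini-Hochberg adjustment over 19900 genes. SE was derived as the size of the log2 fold change over the root of F. The fit was tested on simulated counts. A count of 0 allows up to 3 counts, 0.0794 to 0.129 CPM, for counting error only. Members and lists were chosen with earlier results of these data known. Named genes are all members, Mki67, up to 4 called genes of smallest p per direction in each other list and the 2 most abundant markers per cell type; some are not reported here. Alternatives were DESeq2 1.42.0, other scalings, filters and the first stranded column, robust estimation, a replicate block, 2 covariates, libraries under 40% unmapped pairs, omission of abundant genes, and each library left out.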

Additional observations from a re-analysis of the deposited data

How the results depend on the processing

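Over all genes, 2333 were higher with the unmapped share as a covariate (3506 without it) and 2238 were lower when the share of pairs outside exons was the covariate (3652 without it). The fit on libraries with under 40% unmapped pairs keeps knockout replicate 1 alone, which is assumed to vary like the other libraries. Of the control genes 1 was higher, in place of 2, without the filter, with either covariate and with under 40% unmapped pairs. The number lower, 1, was 0 with the first stranded column or the share outside exons, and 2 with under 40% unmapped pairs. With the unmapped share it stayed at 1, but Insig2 lost its call and Srebf1 gained one. Of the fatty acid enzymes 1 was higher with under 40% unmapped pairs or the share outside exons and 0 with the unmapped share, in place of 2, and 0 in place of 1 were lower with the share outside exons. The fall of Tm7sf2, the 1 lower gene among the later steps and the 18 sterol enzymes, gave 0 with library totals, no filter, the stricter filter, the first stranded column, the replicate block, the abundant genes left out and both covariates. With under 40% unmapped pairs Tm7sf2 also lost its call (-0.37, adjusted p = 0.113), while Dhcr7 was called lower. Outside the members, 1 in place of 3 isoprenoid genes was higher with under 40% unmapped pairs or either covariate, and 1 in place of 0 was lower in DESeq2, without the filter and in the replicate block. Of the SREBP processing genes 0 in place of 1 was higher without the filter, and 1 in place of 2 was lower with the first stranded column or the unmapped share. Of the other fatty acid genes 4 and 3 in place of 10 were higher with under 40% unmapped pairs and with the unmapped share, and 8 in place of 4 were lower with under 40% unmapped pairs. The cause was not tested.

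With each library left out in turn, the number higher and lower ranged over 1821 to 4648 and 2257 to 4778 for all genes, 4 to 6 and 0 for the early steps, 2 to 5 and 0 to 1 for the later steps, 6 to 11 and 0 to 1 for the 18 sterol enzymes, 1 to 2 and 0 to 2 for the control genes, and 1 to 3 and 0 to 1 for the fatty acid enzymes. Outside the members they were 0 to 3 and 0 to 3 for isoprenoid genes, 0 to 1 and 2 to 3 for SREBP processing, 3 to 10 and 4 to 7 for other fatty acid genes and 0 and 8 to 11 for sterol export. Same-numbered libraries deviated from their group means with correlations of -0.18 to 0.11 across genes, and not every library correlated best with its own number. The labels do not say that the numbers pair libraries. These correlations cannot decide it, since deviations from a mean of 3 libraries are bound to each other. Without the filter, the median log2 fold change of the 41649 genes tested was 0.26. With the replicate block, 10 of 18 sterol enzymes were higher and 2 of 6 fatty acid enzymes. In that fit 16 of the 17 called members kept their call. Pairs outside exons made up 14.2%, 9.91% and 18.9% of knockout replicates 1, 2 and 3 and 9.24% to 11.1% of wild-type libraries. When this percentage entered the model, 8 of the 17 kept their call and 7 sterol enzymes were higher. Mvk, Idi1, Nsdhl and Sc5d then lost their call, and Ebp gained one. The unmapped share left 10 calls and 8 sterol enzymes higher, and fitting without the filter 12 and 7. Fdps, at 2.15 and 4.32 CPM in the 2 groups, had the lowest level of the 30 genes.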
